A study of Mus musculus with 12 samples.

Results

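The genes described here are those of the muscle side of the neuromuscular junction, the synapse at which a motor nerve drives a muscle fibre. The list of 10 members was given by name and holds the 5 subunit genes of the muscle acetylcholine receptor (Chrna1, Chrnb1, Chrnd, Chrne and Chrng), the receptor-clustering genes Musk, Dok7 and Rapsn, and the acetylcholine-removing genes Ache and Colq. All 10 had 1 probe set each, out of 23185 genes with a single symbol. Levels were measured in gastrocnemius, the large calf muscle, of 12 mice in 4 groups of 3. All mice were BKS.Cg-Dock7m +/+ Leprdb/J, called db/db, which lack a working leptin receptor and become obese and diabetic. They were 12 weeks old, and each had been given adenovirus carrying shRNA, a short hairpin RNA that makes a cell break down 1 chosen transcript. The TSC22D4+LCN13 shRNA group received both target viruses in equal parts and no control virus. The TSC22D4 shRNA and LCN13 shRNA groups each received 1 target virus mixed with as much control virus, and the control shRNA group received only control virus, at the same total dose. Tissue was taken 1 week after injection from 7 animals per group, and the 3 on arrays were described as representative ones, so their spread may understate that of all treated animals. No group was free of virus, and which cells the virus reached is not stated in the labels.

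The junction works through acetylcholine, which the nerve releases and which opens a pentameric ion channel on the fibre. In adult muscle that channel holds alpha, beta, delta and epsilon subunits, and in fetal muscle a gamma subunit takes the place of epsilon. Agrin from the nerve acts through Lrp4 on the kinase MuSK, which with its adaptor Dok-7 and the scaffold rapsyn packs receptors under the nerve ending. Acetylcholinesterase, anchored in the synaptic cleft by the collagen tail ColQ, ends the signal. A fibre that has lost its nerve makes the fetal subunit again and raises Chrna1, Chrnd and Musk outside the synapse, together with the regulator Myog. This response makes the family a readout of denervation-type change.

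The arrays gave 1 log2 level per probe set, between 4.78 and 14.09, with correlations between arrays of 0.990 to 0.998. Ckm, the creatine kinase of muscle fibres, lay between 13.7 and 13.9 on all 12 arrays, close to the highest level of the table. Its LCN13 arrays were all below its control arrays (difference -0.13, limma adjusted p = 0.148). The targeted transcript Tsc22d4 showed no drop where the label names its virus: TSC22D4+LCN13 shRNA and TSC22D4 shRNA differed from control by 0.23 (limma adjusted p = 0.337) and 0.24 (adjusted p = 0.619) on the log2 scale. The other target, Lcn13, is listed as Obp2a and had levels of 4.90 to 4.97, too close to the lowest level of the table for a check. Groups are therefore named by their labels, and no difference below is tied to a knockdown within muscle. In pieces of whole muscle, fewer cells of a type and less RNA per cell cannot be told apart.

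None of the 10 junction genes changed in any comparison at an adjusted p below 0.05 in limma. Against control, 0 of 10 passed after TSC22D4+LCN13 shRNA, where 4.34% of all genes did, 0 of 10 after TSC22D4 shRNA (0.336% of all genes), and 0 of 10 after LCN13 shRNA (0.85%). Between treated groups, 0 of 10 passed for TSC22D4+LCN13 against TSC22D4 shRNA (0% of all genes), for TSC22D4+LCN13 against LCN13 shRNA (4.21%) and for TSC22D4 against LCN13 shRNA (0.125%). The interaction, which asks whether TSC22D4 virus acted differently with and without LCN13 virus, also gave 0 of 10 (0.125%), as did an F test for any difference among the 4 groups (3.33%). Among 10 genes, a count of 0 is near these shares.

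At an unadjusted p below 0.05, 2 of 10 members differed from control after TSC22D4+LCN13 shRNA (20.4% of all genes), 2 after TSC22D4 shRNA (9.26%) and 3 after LCN13 shRNA (12.4%). The counts were 2 for TSC22D4+LCN13 against TSC22D4 shRNA (10.5%), 3 for TSC22D4+LCN13 against LCN13 shRNA (20.9%), 1 for TSC22D4 against LCN13 shRNA (14%) and 2 for the interaction (9.57%). By the F test it was 4 of 10, Chrna1, Chrnb1, Ache and Colq, where 20.8% of all genes did. No count stood more than 2 genes above what the share over all genes gives for 10.

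The design bounds how large a change of the measured signal could be. For Chrng, whose detection is unknown, that signal may not follow the transcript. Each of the 10 members was compared in 6 pairs of groups, and the 60 unadjusted 95% intervals of the log2 difference all lay between -0.63 and 0.66, both extremes set by Ache. Taken one at a time, none of them reached a 1.6-fold change. The median difference of the members from control was 0.04 for TSC22D4+LCN13, 0.08 for TSC22D4 and 0.0047 for LCN13 shRNA, against medians of -0.0050, -0.0019 and 0.0014 over all genes.

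**Figure D1:**
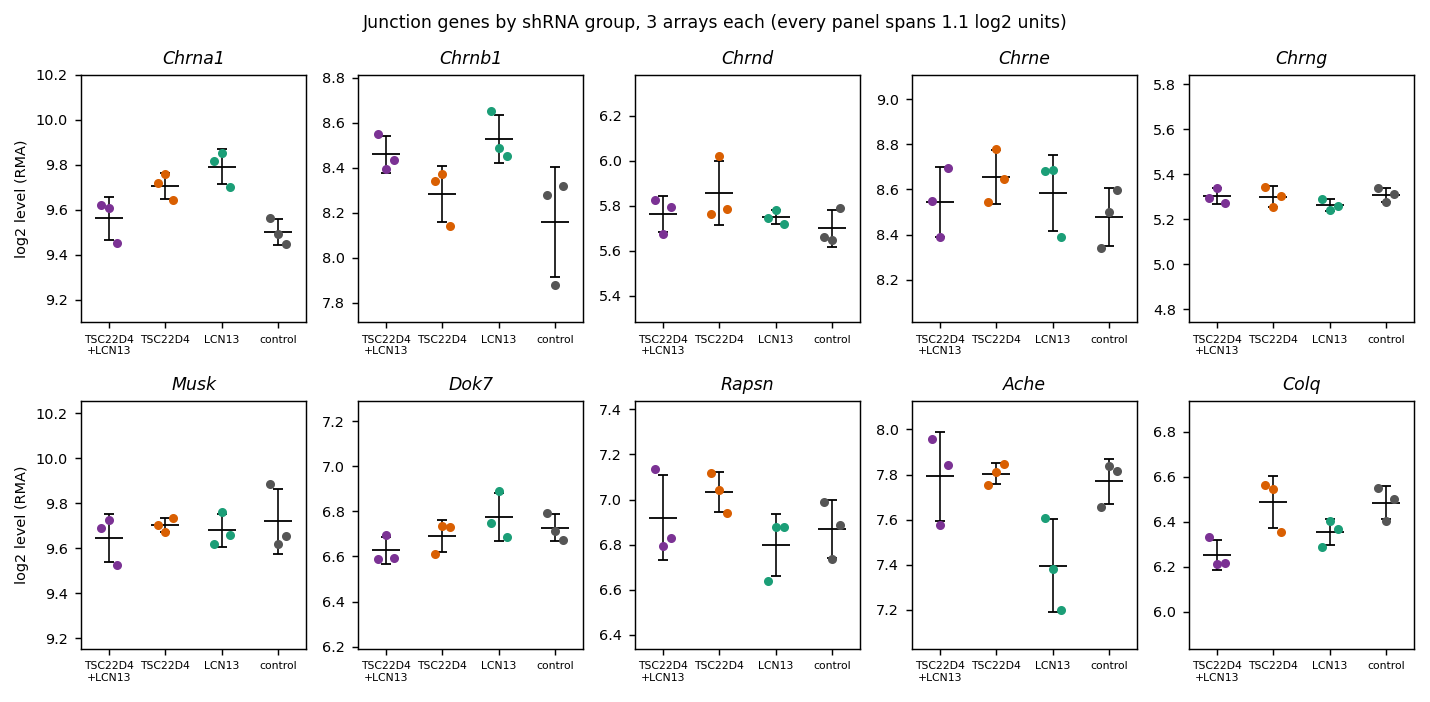
Each panel shows the log2 level of 1 junction gene on 12 arrays (dots) by shRNA group, with the group mean and SD (n = 3) as bars. Chrna1 stands higher in the TSC22D4 and LCN13 groups than in control, Ache is low in the LCN13 group, and Chrng is flat between 5.24 and 5.34.

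**Figure D2:**
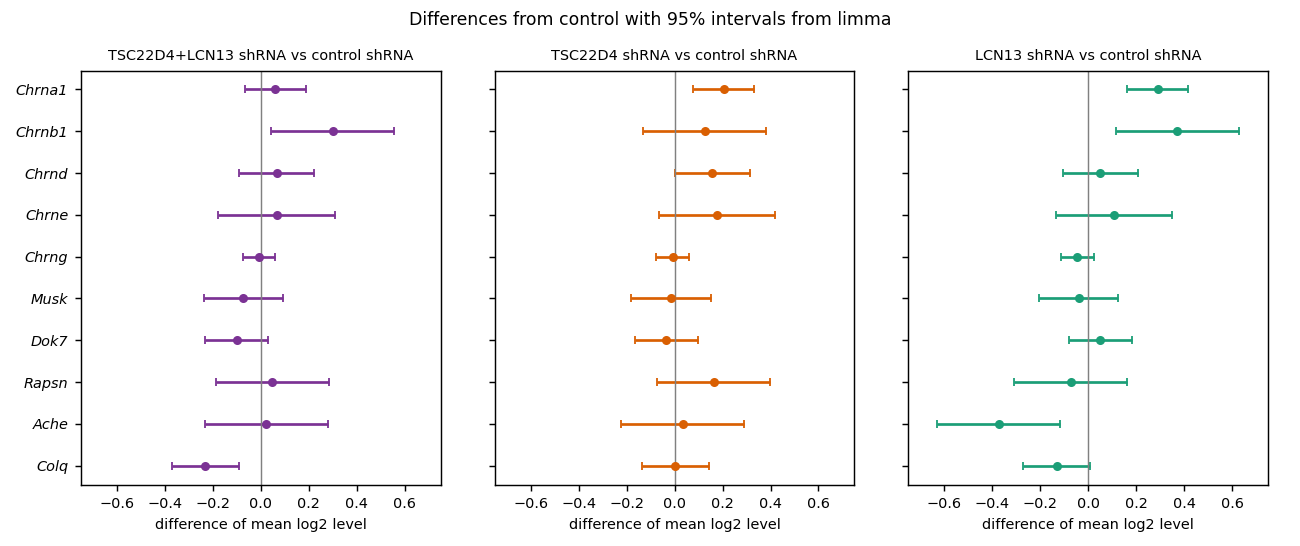
Differences of mean log2 level from control shRNA (dots) with unadjusted 95% intervals from limma (bars) for the 10 members, with TSC22D4+LCN13 on the left, TSC22D4 in the middle and LCN13 on the right (3 arrays against 3 in each). All plotted intervals lie within -0.63 and 0.63, and most include 0.

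Among the receptor subunits, Chrna1 encodes the alpha subunit, which carries the acetylcholine-binding site, and it came nearest to the threshold. Its log2 levels were 9.62, 9.61 and 9.45 in TSC22D4+LCN13 arrays, 9.72, 9.76 and 9.64 in TSC22D4 arrays, 9.82, 9.85 and 9.70 in LCN13 arrays, and 9.56, 9.49 and 9.45 in control arrays. Every LCN13 and every TSC22D4 array thus stood above every control array, while the group with both viruses overlapped with control and lay below both single-virus groups. LCN13 shRNA minus control was 0.29 on the log2 scale, or 1.22-fold (SE 0.0569, limma adjusted p = 0.0579). TSC22D4 shRNA minus control was 0.20 (SE 0.0569, adjusted p = 0.234), and TSC22D4+LCN13 minus control was 0.06 (adjusted p = 0.627). TSC22D4+LCN13 minus LCN13 shRNA was -0.23 (SE 0.0569, adjusted p = 0.0540), and TSC22D4+LCN13 minus TSC22D4 shRNA was -0.15 (adjusted p = 0.418).

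The order of group means for Chrna1 was therefore LCN13, TSC22D4, TSC22D4+LCN13 and control, from high to low. The neighbours LCN13 and TSC22D4 overlapped, as did TSC22D4+LCN13 and control. The interaction was -0.43 (SE 0.0805, unadjusted p = 0.000336, adjusted p = 0.107), which did not pass the correction. The opposite direction of TSC22D4 virus without and with LCN13 virus, with no overlap on either side, was seen in 1 of 10 members and in 0.604% of all genes. Read as LCN13 virus without and with TSC22D4 virus, it was again 1 of 10 members, and 1.09% of all genes. The call for LCN13 shRNA against control was gained with array weights (adjusted p = 0.0364) and without TSC22D4+LCN13 animal 32 (adjusted p = 0.0400), and the adjusted p was 0.218 without control animal 20.

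The stretches before the start of 3 receptor genes are shown because Chrna1 came nearest to a call and because Chrng and Chrne are the fetal and adult alternatives of 1 position in the channel. They come from RefSeq, read in the direction of transcription and ending just before the annotated gene. Capitals mark CAGCTG, a form of the E-box CANNTG that myogenic factors such as MyoD and myogenin bind, and CCGGAA, the core of the N-box through which GABP acts at synaptic nuclei. Of the members, 7 had an entry in the promoter table.
Chrna1 promoter, GRCm38.p6, chr2:73580339-73580588, minus strand: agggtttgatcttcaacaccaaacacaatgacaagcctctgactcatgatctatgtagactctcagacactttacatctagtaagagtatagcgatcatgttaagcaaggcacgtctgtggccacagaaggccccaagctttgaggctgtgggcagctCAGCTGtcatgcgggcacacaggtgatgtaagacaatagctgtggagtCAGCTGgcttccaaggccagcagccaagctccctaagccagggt
Chrng promoter, GRCm38.p6, chr1:87205561-87205810, plus strand: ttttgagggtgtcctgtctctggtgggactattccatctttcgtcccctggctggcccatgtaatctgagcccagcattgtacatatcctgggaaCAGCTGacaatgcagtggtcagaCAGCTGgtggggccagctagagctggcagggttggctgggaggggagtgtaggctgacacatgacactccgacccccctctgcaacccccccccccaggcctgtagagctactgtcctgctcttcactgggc
Chrne promoter, GRCm38.p6, chr11:70619214-70619444, minus strand: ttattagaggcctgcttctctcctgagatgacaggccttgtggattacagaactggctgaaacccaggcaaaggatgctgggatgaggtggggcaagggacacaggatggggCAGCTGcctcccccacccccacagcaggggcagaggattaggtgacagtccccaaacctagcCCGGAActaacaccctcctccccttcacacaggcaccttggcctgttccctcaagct
CAGCTG occurred 2 times in the Chrna1 stretch, 2 times in that of Chrng and 1 time in that of Chrne. CCGGAA occurred 1 time, in Chrne. The other members with an entry had 0 of either. Their stretches were 221 bases for Chrnb1, 243 for Ache, 55 for Dok7 and 17 for Musk. CAGCTG reads the same on both strands and is itself a CANNTG, so these 2 motifs overlap, and CCGGAA was searched on both strands. Over 27025 promoters, 12.8% held CAGCTG and 12.2% held CCGGAA within the 250 bases before the start, and 66% held any CANNTG. These are matches of letters only.

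Chrng, the fetal gamma subunit, was flat. Its levels were 5.29, 5.34 and 5.27 in TSC22D4+LCN13 arrays, 5.34, 5.25 and 5.30 in TSC22D4 arrays, 5.29, 5.24 and 5.26 in LCN13 arrays, and 5.34, 5.28 and 5.31 in control arrays. All 12 lay within 0.104 of each other and below 5.49, the median of all genes, and whether the probe set was above background is not known because no detection calls were used here. The differences from control were -0.0071 (95% interval -0.075 to 0.061), -0.0084 (-0.076 to 0.059) and -0.046 (-0.114 to 0.022) for TSC22D4+LCN13, TSC22D4 and LCN13 shRNA.

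Chrne, the epsilon subunit that makes the adult channel, was measured at 8.55, 8.39 and 8.70 in TSC22D4+LCN13 arrays, 8.54, 8.78 and 8.64 in TSC22D4 arrays, 8.68, 8.69 and 8.39 in LCN13 arrays, and 8.34, 8.50 and 8.60 in control arrays. The 4 groups overlapped throughout. Its largest difference from control was 0.18 after TSC22D4 shRNA (95% interval -0.065 to 0.421, adjusted p = 0.716). As a within-array contrast of fetal and adult subunits, Chrng minus Chrne averaged -3.24 ± 0.189 in TSC22D4+LCN13, -3.36 ± 0.164 in TSC22D4, -3.32 ± 0.166 in LCN13 and -3.17 ± 0.148 in control arrays (SD, n = 3 each). In exact two-sided permutation tests the 6 pairs of groups gave p between 0.3 and 0.8, where 0.1 is the smallest p that 3 arrays against 3 allow, and the adjusted p was 0.72 to 0.8. Since Chrng was flat at a level of unknown detection, this contrast follows Chrne, and the 3 comparisons with control share the same control arrays.

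Chrnb1, the beta subunit that contacts rapsyn, had the widest range of the subunits. Its levels were 8.55, 8.39 and 8.43 in TSC22D4+LCN13 arrays, 8.34, 8.37 and 8.14 in TSC22D4 arrays, 8.65, 8.49 and 8.45 in LCN13 arrays, and 8.28, 7.88 and 8.32 in control arrays. Both groups that received LCN13 virus stood above all control arrays, of which animal 19 was the lowest of the 12. LCN13 shRNA minus control was 0.37, or 1.29-fold (SE 0.114, adjusted p = 0.198), and TSC22D4+LCN13 minus control was 0.30 (SE 0.114, adjusted p = 0.171). Without control animal 19 these differences were 0.23 and 0.16. With a score of 6 tendon genes as a covariate they were 0.66 (adjusted p = 0.104) and 0.60 (adjusted p = 0.0805). Both comparisons share the control arrays.

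Chrnd, the delta subunit, lay between 5.65 and 6.02, not far above the median of all genes. It measured 5.83, 5.67 and 5.79 in TSC22D4+LCN13 arrays, 5.76, 6.02 and 5.79 in TSC22D4 arrays, 5.75, 5.78 and 5.72 in LCN13 arrays, and 5.66, 5.65 and 5.79 in control arrays. TSC22D4 shRNA minus control was 0.16 (adjusted p = 0.539), and 0.076 without TSC22D4 animal 26, the highest array. Groups overlapped in all comparisons.

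Of the clustering genes, Musk, the kinase at the head of receptor clustering and a gene that denervation raises, measured 9.69, 9.73 and 9.53 in TSC22D4+LCN13 arrays, 9.71, 9.67 and 9.73 in TSC22D4 arrays, 9.62, 9.76 and 9.66 in LCN13 arrays, and 9.88, 9.62 and 9.65 in control arrays. It was highest on a control array, that of animal 18, and its differences from control were -0.073, -0.016 and -0.040 for TSC22D4+LCN13, TSC22D4 and LCN13 shRNA, with intervals within -0.239 and 0.150. Its F-test p was 0.778, the largest of the 10 members.

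Dok7, the adaptor that binds and activates MuSK, measured 6.59, 6.70 and 6.59 in TSC22D4+LCN13 arrays, 6.61, 6.74 and 6.73 in TSC22D4 arrays, 6.75, 6.89 and 6.69 in LCN13 arrays, and 6.79, 6.71 and 6.67 in control arrays. Its largest difference was TSC22D4+LCN13 minus LCN13 shRNA at -0.15 (SE 0.0587, adjusted p = 0.183), with 1 array of the first group above the lowest of the second. Rapsn, the scaffold rapsyn that ties receptors to the cytoskeleton, measured 7.14, 6.79 and 6.83 in TSC22D4+LCN13 arrays, 7.12, 7.04 and 6.94 in TSC22D4 arrays, 6.64, 6.88 and 6.88 in LCN13 arrays, and 6.99, 6.73 and 6.89 in control arrays. Every TSC22D4 array was above every LCN13 array (difference 0.24, adjusted p = 0.358), and both groups overlapped with control.

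Ache encodes acetylcholinesterase, which is also made outside the junction, in red cells among others. Its levels were 7.96, 7.57 and 7.84 in TSC22D4+LCN13 arrays, 7.75, 7.81 and 7.84 in TSC22D4 arrays, 7.61, 7.38 and 7.20 in LCN13 arrays, and 7.66, 7.84 and 7.81 in control arrays. All 3 LCN13 arrays lay below all control and all TSC22D4 arrays, and only animal 30 of the TSC22D4+LCN13 group fell in their range. LCN13 shRNA minus control was -0.37, or 0.772-fold (SE 0.114, adjusted p = 0.193). TSC22D4+LCN13 minus LCN13 was 0.40 (adjusted p = 0.0841) and TSC22D4 minus LCN13 was 0.41 (adjusted p = 0.153). Without animal 30, the first of these was 0.51 and passed (adjusted p = 0.0312).

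Transcripts of liver cells were high on some of the same arrays. A score of the 4 measured of 5 hepatocyte markers, the mean deviation from their 12-array means, was -0.330, 0.771 and -0.753 in TSC22D4+LCN13 animals 29, 30 and 32, and -0.582, -0.309 and -0.623 in TSC22D4 animals. In LCN13 animals 21, 22 and 23 it was -0.00643, 1.258 and 0.819, and in control animals 18, 19 and 20 it was -0.702, 0.372 and 0.0840. The arrays with the 3 highest scores had the 3 lowest Ache levels. Over 12 arrays Pearson r was -0.71 and Spearman rho -0.63, and r was -0.38 without the 2 arrays with the farthest scores and -0.47 within groups. This pair and those given for Colq were picked after seeing 140 pairs of a member and a list. Of 4 red cell markers 2 were measured, Hbb-b1 and Alas2, and their score was 0.396 to 1.82 in TSC22D4+LCN13, -0.162 to 0.635 in TSC22D4, -0.832 to -0.634 in LCN13 and -0.895 to -0.154 in control arrays. Its r with Ache was 0.51, with 0.28 without the 2 farthest scores and 0.19 within groups. LCN13 and control arrays overlapped in the red cell score and in the hepatocyte score. The part of these markers in the Ache result was not tested.

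Colq, the collagen tail that holds acetylcholinesterase in the cleft, measured 6.33, 6.21 and 6.22 in TSC22D4+LCN13 arrays, 6.56, 6.55 and 6.36 in TSC22D4 arrays, 6.29, 6.40 and 6.37 in LCN13 arrays, and 6.55, 6.41 and 6.50 in control arrays. The group with both viruses lay below all control and all TSC22D4 arrays. TSC22D4+LCN13 minus control was -0.23, or 0.851-fold (SE 0.0623, adjusted p = 0.0682), and TSC22D4+LCN13 minus TSC22D4 was -0.23 (adjusted p = 0.269). The first passed without TSC22D4 animal 27, which enters through the shared spread (adjusted p = 0.0403). LCN13 minus control was -0.13 (adjusted p = 0.432), with all LCN13 arrays below all control arrays.

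Scores of tendon, macrophage and Schwann cell markers moved the other way. That of 6 tendon markers ranged from 0.0490 to 0.478 in TSC22D4+LCN13 arrays, from -0.370 to 0.314 in TSC22D4 arrays, from 0.136 to 0.438 in LCN13 arrays and from -1.06 to 0.106 in control arrays. Over 12 arrays its r with Colq was -0.76 (Spearman rho -0.84), without the 2 farthest scores -0.85, and within groups -0.78. With the score as a covariate the Colq difference of TSC22D4+LCN13 from control was -0.077 (adjusted p = 0.692), and that of LCN13 from control was 0.017 (adjusted p = 0.999). The tendon score itself differed between groups, with all LCN13 arrays above all control arrays. This fit therefore cannot tell the score and the group apart. The score of the 5 measured of 6 macrophage markers was 0.126 to 0.745 in TSC22D4+LCN13, -0.0801 to 0.0556 in TSC22D4, -0.266 to 0.108 in LCN13 and -0.299 to -0.127 in control arrays. Its r with Colq was -0.67 (Spearman rho -0.70), -0.67 without the 2 farthest scores and -0.42 within groups. Against control, 2 of these 5 markers rose after TSC22D4+LCN13 shRNA (4.34% of all genes passed), Mrc1 by 0.81 (adjusted p = 0.0200) and Adgre1 by 0.49 (adjusted p = 0.0405). With 1 array left out, the Adgre1 call was lost in 10 of 12 fits (adjusted p up to 0.113) and the Mrc1 call in 3 (up to 0.0575). Both calls were lost with the tendon covariate (adjusted p = 0.284 for Adgre1 and 0.250 for Mrc1). The same held without the other groups (0.150 and 0.0571). For Schwann cell markers r was -0.75 (rho -0.65), -0.49 without the 2 farthest scores. The part of macrophage and Schwann cell markers in the Colq result was not tested.

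**Figure D3:**
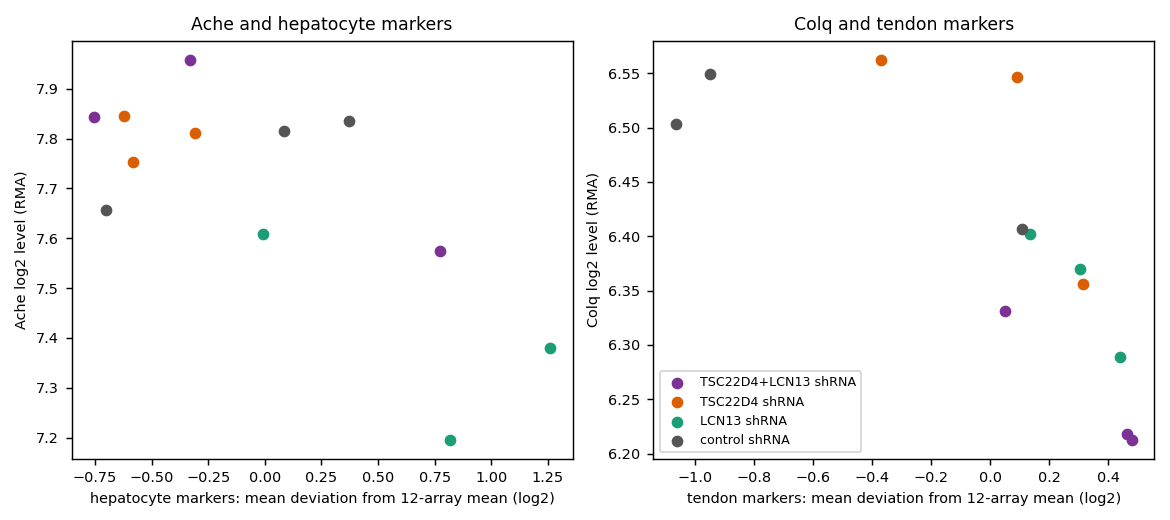
Left, Ache log2 level against the score of 4 hepatocyte markers, and right, Colq log2 level against the score of 6 tendon markers, 1 dot per array, with colours for the 4 shRNA groups (3 arrays each) and scores as mean log2 deviations from the 12-array mean. The 3 arrays with the highest hepatocyte scores have the lowest Ache levels, and Colq is low where the tendon score is high (r = -0.76 over 12 arrays).

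Counted by groups that do not overlap, 2 of 10 members were apart from control after TSC22D4+LCN13 shRNA (Chrnb1 and Colq, against 23.7% of all genes) and 1 after TSC22D4 shRNA (Chrna1, 16.9%). After LCN13 shRNA it was 4 of 10 (Chrna1 and Chrnb1 above, Ache and Colq below, 18.8%). The other pairs gave 3 for TSC22D4+LCN13 against TSC22D4 (14.6%), 1 for TSC22D4+LCN13 against LCN13 (22.6%) and 3 for TSC22D4 against LCN13 shRNA (21.3%).

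The members did not vary as 1 unit. Over the 45 pairs of members the median r across 12 arrays was 0.096, 5 pairs were above 0.5 and 2 below -0.5. All points share the same 12 arrays and their normalization. The highest was Chrnd with Chrne, subunits of the same adult channel (r = 0.76, Spearman 0.76, within groups 0.70). Rapsn with Colq reached 0.55, and 0.86 within groups. The lowest was Chrne with Chrng at -0.52, where Chrng spans only 0.104.

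By Pearson r over 12 arrays among named genes, the gene most alike was Mamstr for Chrna1 (0.90), Polr2f for Chrnb1 (0.90), Ttll12 for Chrnd (0.89) and Zfp318 for Chrne (0.87). For Musk it was Nat10 (0.82), for Dok7 Lca5 (0.96), for Rapsn Pir (0.93), for Ache Klhdc10 (0.91) and for Colq Kcnj11 (0.94). Each is the highest over 12 arrays among those of the 23185 genes kept for this ranking, and is given as a description. Predicted genes and some others were left out by the pattern of their names.

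Few of the genes that act beside the members passed the correction. The list held 32 measured genes of agrin and neuregulin signalling, the postsynaptic scaffold and the basal lamina. In limma 1 passed as lower in each of 3 comparisons and none passed as higher. Over all genes 4.34% passed for TSC22D4+LCN13 against control, 0.85% for LCN13 against control and 4.21% for TSC22D4+LCN13 against LCN13. At an unadjusted p below 0.05, 11 of 32 differed from control after TSC22D4+LCN13 shRNA (20.4% of all genes). The same count was 3 after TSC22D4 shRNA (9.26%) and 7 after LCN13 shRNA (12.4%). Agrn, which encodes agrin, measured 6.24, 6.31 and 6.21 in TSC22D4+LCN13 arrays, 6.21, 6.33 and 6.26 in TSC22D4 arrays, 6.13, 6.36 and 6.48 in LCN13 arrays, and 6.56, 7.00 and 6.91 in control arrays. All 9 treated arrays were below all control arrays. It fell by 0.57 after TSC22D4+LCN13 shRNA (SE 0.114, adjusted p = 0.0265). The differences after TSC22D4 shRNA (-0.56, adjusted p = 0.0993) and LCN13 shRNA (-0.50, adjusted p = 0.0892) did not pass. All 3 use the same control arrays, and the call was lost without control animals 19 or 20 or TSC22D4+LCN13 animals 29 or 32 (adjusted p up to 0.0915), in a fit without the other groups (adjusted p = 0.0965) and after adjusting for the tendon score (adjusted p = 0.134). The Agrn difference was -0.57 in the fit without the other groups and -0.71 with the tendon score. In the 4 fits with 1 array fewer that lost the call it lay between -0.57 and -0.48. Measured in whole muscle, the Agrn level does not tell which cells made the transcript. It is therefore not a measure of agrin from the nerve.

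Dvl1, a Wnt pathway adaptor that binds MuSK, fell by 0.23 after LCN13 shRNA (SE 0.0391, adjusted p = 0.0339), at 9.21 in LCN13 and 9.43 in control arrays, and lost the call in 7 of 12 fits that left out 1 array, the highest adjusted p being 0.140 without control animal 20. The Dvl1 call was also lost in 5 of the 9 other settings, with adjusted p of 0.0546 to 0.315 and differences of -0.25 to -0.14. Col13a1, a membrane collagen of the junction, was lower by a small amount in TSC22D4+LCN13 than in LCN13 arrays (5.62 against 5.79, difference -0.16, SE 0.0249, adjusted p = 0.0112), which held in all 12 such fits. The Col13a1 call was lost at the same difference among probe sets above the median level (adjusted p = 0.0692), with trend and robust variance (0.0734) and in a fit without the other groups (0.0980). Its interaction was -0.20 (adjusted p = 0.0936). The median of the 32 genes was -0.035, -0.0076 and -0.017 for TSC22D4+LCN13, TSC22D4 and LCN13 shRNA against control, near the medians over all genes.

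In the wider denervation response no gene passed the correction as higher than control. Of 19 measured genes beyond the members, 0 passed against control after TSC22D4+LCN13 shRNA (4.34% of all genes) and 0 after TSC22D4 shRNA (0.336%). After LCN13 shRNA 1 passed, a fall (0.85%). At an unadjusted p below 0.05 there were 4 of 19 (20.4% of all genes), 1 of 19 (9.26%) and 8 of 19 (12.4%) in the same order. Of the 8 after LCN13 shRNA, 5 were above control and 3 below, none overlapping with it (18.8% of all genes did not overlap). The medians of the 19 differences were 0.034, 0.0079 and 0.066, with 10, 10 and 12 of them above 0. The list was not sorted by the direction in which denervation moves each gene. These counts and medians therefore give no direction of that response. Among the 140 pairs of member and list, this list's score gave the highest r within groups, 0.92 with Rapsn and 0.89 with Colq. Over 12 arrays r was 0.49 and 0.11, and without the 2 farthest scores 0.15 and 0.29. Musk reached 0.69 within groups, while Chrne and Ache had -0.31 and -0.25. These pairs were also picked after seeing all 140, and what lies behind them was not tested. Trim63, the ubiquitin ligase MuRF1 that denervation induces, was the 1 that passed, lower by 0.75 after LCN13 shRNA (SE 0.120, adjusted p = 0.0251). It measured 10.71, 10.76 and 10.69 in TSC22D4+LCN13 arrays, 10.83, 10.61 and 10.59 in TSC22D4 arrays, 9.87, 10.25 and 10.18 in LCN13 arrays and 11.08, 10.75 and 10.71 in control arrays. The fall did not pass in 4 of 12 fits with 1 array fewer (adjusted p up to 0.0655), in a fit without the other groups (-0.75, adjusted p = 0.128), after adjusting for the tendon score (-0.57, adjusted p = 0.550) or as an average effect over both backgrounds (-0.35, adjusted p = 0.105). Trim63 was higher by 0.62 in TSC22D4+LCN13 than in LCN13 arrays (SE 0.120, adjusted p = 0.0261), a call lost in 3 of 12 fits that left out 1 array (adjusted p up to 0.0660, without TSC22D4+LCN13 animal 32), with array weights (0.0511) and without the other groups (0.0898).

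Myog, which drives receptor genes after denervation, averaged 6.19 in TSC22D4+LCN13, 6.17 in TSC22D4, 6.22 in LCN13 and 6.15 in control arrays, and differed from control by at most 0.066 (adjusted p of 0.764 to 0.971). Runx1, a transcription factor raised by denervation, was at 6.17 in LCN13 and 5.96 in control arrays (difference 0.21, adjusted p = 0.0892). The highest values belonged to Ankrd1, a stress-induced ankyrin repeat protein named here after its values were seen, at 0.72 after TSC22D4+LCN13 shRNA (adjusted p = 0.0921) and 0.84 after LCN13 shRNA (adjusted p = 0.121), against -0.069 after TSC22D4 shRNA. Fbxo32, the ligase atrogin-1 and likewise picked after its values were seen, was at -0.52 after TSC22D4+LCN13 shRNA (adjusted p = 0.160) and -0.58 after LCN13 shRNA (adjusted p = 0.224). The others of the 8 after LCN13 shRNA, also named after their values were seen, were Tnfrsf12a, the TWEAK receptor, at 0.50 (adjusted p = 0.230), Ncam1, an adhesion molecule that spreads over denervated fibres, at 0.33 (adjusted p = 0.212), Dach2, a repressor acting on Myog, at 0.14 (adjusted p = 0.262) and Gadd45a, a stress-response gene, at -0.41 (adjusted p = 0.203).

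**Figure D4:**
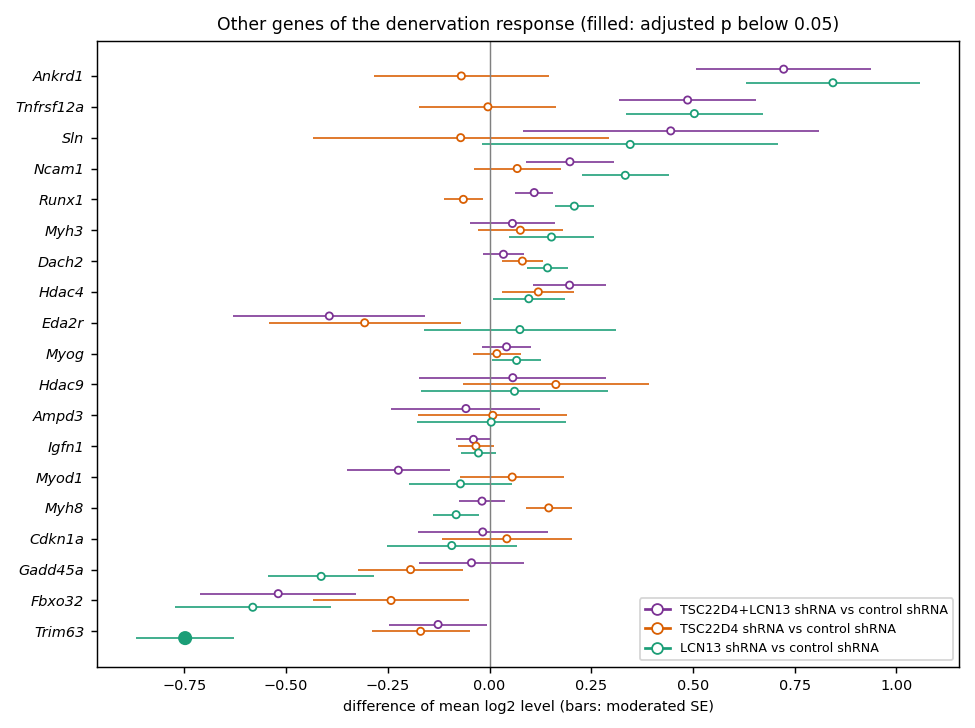
Differences of mean log2 level from control shRNA for 19 other genes of the denervation response (rows, ordered by the LCN13 difference), with moderated standard errors as bars and 3 arrays against 3 in each comparison. Trim63 after LCN13 shRNA is the 1 filled dot, at -0.75 with adjusted p = 0.0251, and the other dots spread to both sides of 0.

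On the nerve side, of 12 motor axon genes 0 passed against control in any group. In each of the 3 comparisons 1 had an unadjusted p below 0.05. Over all genes the shares were 20.4% for TSC22D4+LCN13, 9.26% for TSC22D4 and 12.4% for LCN13 shRNA. The mean level of this list was below the median of all genes on every array. Without detection calls, these counts cannot tell an unchanged nerve from transcripts too low to measure in muscle. Slc18a3, the vesicular acetylcholine transporter, was higher by 0.10 in TSC22D4+LCN13 than in LCN13 arrays (5.17 against 5.07, SE 0.0233, adjusted p = 0.0392), a level close to the lowest of the table, and the call was lost in 11 of 12 fits that left out 1 array, with array weights (adjusted p = 0.0544), with the tendon covariate (0.0525) and without the other groups (0.160). Chat, which makes acetylcholine, was at 5.29 in TSC22D4+LCN13 and 5.44 in control arrays (difference -0.15, adjusted p = 0.0776). Of 11 Schwann cell genes 0 passed, and 11 of 11 were above 0 for TSC22D4+LCN13 against control, with a median of 0.12, against 3 of 11 for TSC22D4 and 3 of 11 for LCN13 shRNA. The Schwann score was 0.0318 to 0.197 in TSC22D4+LCN13 arrays and -0.0984 to -0.0105 in control arrays, without overlap. Fa2h, which makes myelin lipids, was at 0.20 above control there (adjusted p = 0.0884). None of 17 neuronal nicotinic and muscarinic receptor genes with butyrylcholinesterase passed in any comparison, with 0 to 5 at an unadjusted p below 0.05. The 5 were for TSC22D4+LCN13 against LCN13, where 20.9% of all genes did, and the 0 for TSC22D4+LCN13 against TSC22D4 (10.5%).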

How the data were processed

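RNA of gastrocnemius from 12 mice was biotin-labelled and measured on Affymetrix arrays, 1 per mouse, per the labels' protocols. The deposited log2 values are the output of RMA as run by the authors, per the submitters' processing notes. RMA corrects background, makes the distributions of all arrays equal and summarises the probes of a set, so a shift of most transcripts would not be seen. No source used here gives its version or a genome build. The table held 25206 probe sets, of which 23185 had 1 gene symbol in the platform annotation and were tested. Precision is limited by the number of arrays. Each member had 1 probe set. Groups came from the submitters' labels. No batch is given there.

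The fit used limma 3.58.1 (lmFit, eBayes) under R 4.3.3 on all 23185 genes, with 4 group means over 12 arrays (8 residual and 1.69 prior degrees of freedom). Tests were two-sided, Benjamini-Hochberg adjustment ran over all genes of each comparison, and an adjusted p below 0.05 passed. The steps were tested on simulated data. The members, gene lists and tests were chosen with earlier results of these data known. Named genes were all members, the genes of the other lists that passed in any comparison, up to 2 more of a list where fewer passed, and up to 3 genes most alike in pattern per member with a mean above the median, of which the text gives the first, and the text names only some of the list genes. Promoter stretches came from RefSeq (GRCm38.p6), 1 window per gene, without bases inside the annotated gene. Motif shares were taken over the first 250 bases of each window.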

Additional observations from a re-analysis of the deposited data

Results flagged for a closer look

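Chrna1 was picked out because its single-virus differences ran opposite ways in the presence and absence of the other virus. TSC22D4 shRNA arrays lay above all control arrays, and TSC22D4+LCN13 arrays lay below all LCN13 arrays. The difference of these differences was -0.43 on the log2 scale (limma adjusted p = 0.107), which failed the correction over all genes, and it lay between -0.48 and -0.38 when each array was left out in turn. Such opposite and non-overlapping values were found in 140 of 23185 genes for TSC22D4 virus.

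Col13a1 showed the same arrangement, with 5.66, 5.63 and 5.58 in TSC22D4+LCN13 arrays, 5.73, 5.71 and 5.73 in TSC22D4 arrays, 5.77, 5.80 and 5.80 in LCN13 arrays and 5.69, 5.66 and 5.70 in control arrays. Its difference of differences was -0.20 (adjusted p = 0.0936), at a level near the median of all genes.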

How the results depend on the processing

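The 9 alternatives to the settings above (all probe sets, probe sets above the median level, trend with robust variance shrinkage, quantile normalization, centring on the median, array weights, a tendon score as a covariate, only the groups compared, and average effects over both backgrounds) left the count of members called at 0 wherever they were run, except that array weights gave 1 for LCN13 against control and 1 for the F test, both Chrna1. All 9 were run for TSC22D4 and LCN13 against control, 8 for the other pairs (no average effects), and 7 for the interaction and the F test (nor the groups alone). Leaving out each of 12 arrays gave 0 to 1 for LCN13 and TSC22D4+LCN13 against control and for both viruses against LCN13 alone, and 0 to 0 for TSC22D4 against control, TSC22D4+LCN13 against TSC22D4, TSC22D4 against LCN13, the interaction and the F test.

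Of 563 recomputed differences of members 18 changed sign, all of values that had not passed, and 43 of 840 did when 1 array was left out. With the tendon score they were Musk for TSC22D4, LCN13 and TSC22D4+LCN13 over control (0.051, 0.056 and 0.027), and in TSC22D4 against LCN13 (-0.0044), Chrng for TSC22D4 and TSC22D4+LCN13 against control (0.014 and 0.026), Rapsn and Colq for LCN13 against control (0.17 and 0.017) and Ache for TSC22D4+LCN13 against control (-0.022). As average effects they were Chrna1, Chrng and Colq for TSC22D4 virus (-0.012, 0.015 and -0.049) and Chrnd, Chrne and Dok7 for LCN13 virus (-0.021, -0.0022 and -0.0077). With array weights they were Colq for TSC22D4 against control (-0.0066), Chrng for TSC22D4+LCN13 against TSC22D4 (-0.00084) and Chrne for TSC22D4+LCN13 against LCN13 (0.0040). The cause was not tested.

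Leaving out 1 array at a time changed the sign of the following differences. For TSC22D4 against control the ranges were -0.0142 to 0.206 for Chrnb1, -0.0305 to 0.0144 for Chrng, -0.0649 to 0.0667 for Musk, -0.0608 to 0.00578 for Dok7, -0.0225 to 0.0673 for Ache and -0.0375 to 0.0685 for Colq. For LCN13 against control the ranges were -0.0897 to 0.042 for Musk, -0.00838 to 0.0946 for Dok7 and -0.141 to 0.00602 for Rapsn. For TSC22D4+LCN13 against control the ranges were -0.0106 to 0.144 for Chrne, -0.0266 to 0.00803 for Chrng, -0.122 to 0.00944 for Musk, -0.0599 to 0.112 for Rapsn and -0.0605 to 0.131 for Ache. For TSC22D4+LCN13 against TSC22D4 the ranges were -0.0215 to 0.0234 for Chrng, -0.097 to 0.00358 for Musk and -0.0942 to 0.0977 for Ache. For TSC22D4+LCN13 against LCN13 the ranges were -0.0145 to 0.0612 for Chrnd, -0.139 to 0.0361 for Chrne and -0.0723 to 0.0283 for Musk. For TSC22D4 against LCN13 the ranges were -0.0273 to 0.127 for Chrne and -0.00456 to 0.0648 for Musk. For the interaction the ranges were -0.0993 to 0.0438 for Musk and -0.149 to 0.0274 for Rapsn.

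Chrng minus Chrne, with 1 array left out, lay between -0.170 and 0.0187 for TSC22D4+LCN13 against control, -0.265 and -0.101 for TSC22D4 against control, -0.248 and -0.0703 for LCN13 against control. The range was 0.016 to 0.205 for both viruses against TSC22D4 alone, -0.0166 to 0.175 for both against LCN13 alone and -0.111 to 0.0622 for TSC22D4 against LCN13.

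No paired analysis was possible because the animal numbers differ between groups. Arrays have no detection calls here, so low levels such as those of Chrng and Slc18a3 bound neither presence nor absence.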
